A study of Homo sapiens with 12 samples.

Results

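The genes described are 7 members of the S100 family (*S100A4*, *S100A6*, *S100A8*, *S100A9*, *S100A10*, *S100A11* and *S100A12*), the giant scaffold gene *AHNAK* and the annexins *ANXA1* and *ANXA2*, which make up 10 of the 58288 genes in the deposited count table. They were chosen by symbol, and *AHNAK* was included with its wide difference in vehicle level between the cell types already known. Levels in vehicle-treated cells are therefore given as a description, without a test, and the tests concern the response to TNF-α. These genes and the lists of further genes were chosen with earlier results of these data known. The tests are therefore not independent of that choice. RNA was sequenced from HL-60/S4, an established human promyelocytic leukemia cell line, in 4 groups of 3 libraries, each library from its own flask. Promyelocytes were undifferentiated cells and granulocytes were the same line after 4 days in 1 µM all-trans retinoic acid (ATRA). In each cell type, TNF-α was given for 2 hr at 16 ng/mL and the vehicle was an equal volume of water. All 4 groups were at passage 8, in medium with added calcium, and the total RNA was depleted of ribosomal RNA.

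S100 proteins are small proteins that bind calcium through EF-hand motifs, and many then bind a partner protein. *S100A8* and *S100A9* encode the calgranulins, which pair as calprotectin, an abundant cytosolic protein of neutrophils, while *S100A12* encodes a further calgranulin of the same cells. Annexins bind phospholipid membranes in the presence of calcium. *S100A10* pairs with *ANXA2*, *S100A11* binds *ANXA1*, and the *S100A10*-*ANXA2* complex binds the AHNAK protein at the plasma membrane.

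The promoter sequences of 4 genes are shown because they carry the largest differences within the described set. Within it, *AHNAK* has the largest response and *S100A4* the largest decrease in promyelocytes. *S100A8* and *S100A9* differ most widely in level upwards. Each run holds the 250 bases before the gene's start in RefSeq (assembly GRCh38.p14), read 5′ to 3′ on the gene's own strand. Capitals mark matches to a motif found on either strand, and no matches overlapped in these runs.
AHNAK: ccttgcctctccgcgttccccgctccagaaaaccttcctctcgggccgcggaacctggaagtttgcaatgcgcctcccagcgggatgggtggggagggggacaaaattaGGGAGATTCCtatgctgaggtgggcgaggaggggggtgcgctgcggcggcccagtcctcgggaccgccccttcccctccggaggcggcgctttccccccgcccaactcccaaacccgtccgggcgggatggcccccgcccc
S100A4: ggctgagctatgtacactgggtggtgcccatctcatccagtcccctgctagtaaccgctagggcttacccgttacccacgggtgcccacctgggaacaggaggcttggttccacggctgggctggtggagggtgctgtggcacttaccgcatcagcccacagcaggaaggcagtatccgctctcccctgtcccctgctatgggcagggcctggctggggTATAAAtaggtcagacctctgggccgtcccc
S100A8: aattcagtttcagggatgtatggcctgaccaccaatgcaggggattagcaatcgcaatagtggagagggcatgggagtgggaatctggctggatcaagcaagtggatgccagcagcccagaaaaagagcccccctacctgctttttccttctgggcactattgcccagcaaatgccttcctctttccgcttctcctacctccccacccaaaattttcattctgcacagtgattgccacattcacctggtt
S100A9: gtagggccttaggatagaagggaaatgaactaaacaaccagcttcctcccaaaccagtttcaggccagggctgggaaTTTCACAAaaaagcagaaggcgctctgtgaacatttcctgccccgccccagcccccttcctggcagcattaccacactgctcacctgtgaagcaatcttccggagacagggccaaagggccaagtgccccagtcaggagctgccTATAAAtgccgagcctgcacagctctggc

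The windows lie at chr11:62545827-62546076 on the minus strand for *AHNAK*, chr1:153545807-153546056 on the minus strand for *S100A4*, chr1:153391189-153391438 on the minus strand for *S100A8* and chr1:153357604-153357853 on the plus strand for *S100A9*. The *AHNAK* and *S100A4* windows fall inside the genes as annotated in the count table, which extend farther upstream than the RefSeq start used. For *S100A8*, which has 3 RefSeq starts, the start nearest to the annotated gene end was used. The search covered a TATA box (TATAAA), a C/EBP core (TTNNGNAA), an AP-1 element (TGANTCA) and the NF-κB consensus. In *AHNAK* the NF-κB consensus was matched at positions -141 to -132, counted backwards from the start, and there was no TATA box. *S100A9* held a TATA box at -29 to -24 and a C/EBP match at -173 to -166, *S100A4* held a TATA box at -31 to -26, and *S100A8* held none of the 4 motifs. Among 35116 RefSeq windows of this length, 10.7% held the TATA box, 33.2% the C/EBP core, 6.57% the AP-1 element and 9.96% the NF-κB consensus. Only *AHNAK* among the 10 genes matched NF-κB, a share similar to that of all windows. A match describes letters in a window and says nothing of binding, and the absence of a match says only that these letters are not there.

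Library totals ran from 22829189 to 31895061 counted read pairs, and 3 counts, taken as the floor, stood at 0.0952 to 0.135 CPM, the count relative to the library size after TMM scaling. Summed over 8 granulocytic markers, expression was 288 to 302 CPM in vehicle-treated promyelocytes and 5066 to 5391 CPM in vehicle-treated granulocytes. The sum of 6 promyelocyte markers was 7811 to 8421 and 2245 to 2476 CPM. These 6 were the transcription factor *MYB* and granule genes, with *MPO* the highest. With TNF-α these sums were 365 to 381 and 6457 to 7345 CPM in promyelocytes. In granulocytes they were 5656 to 5984 and 2174 to 2359 CPM. All marker values were scaled within each cell type. The granulocytic markers did not move together. In granulocytes with TNF-α, *NCF1*, *TGM2* and *FPR1* were higher and *ITGAM*, *CD38*, *CSF3R* and *CEBPE* lower, while *CYBB* overlapped. There *NCF1* stood at 1169 to 1312 CPM with vehicle and 1804 to 2063 CPM with TNF-α. *CEBPE* stood at 199 to 226 and 86.4 to 100 CPM, and *MYB* at 113 to 120 and 34.6 to 41.4 CPM. In promyelocytes *CYBB* and *NCF1* were higher, *CSF3R* and *CEBPE* lower and the others overlapped. Among macrophage markers, *CD163*, *MRC1* and *MARCO* stayed at or under the floor in every library. *CD68* had 2 to 12 counts in vehicle-treated and 4 to 7 counts in TNF-α treated granulocytes, *C1QA* had 0 to 3 and 3 to 4 counts, and both had at most 3 counts in promyelocytes, while *CSF1R* stood at 49.2 to 51.0 CPM in vehicle-treated and 29.6 to 33.2 CPM in TNF-α treated granulocytes, against 3.66 to 4.37 and 2.51 to 3.68 CPM in promyelocytes. The part of these shifts in the results below was not tested. The experiments on the cell types were run separately. Cell type and experiment therefore cannot be told apart in any difference of level or of response between them. The paper also gives a different cell density for each cell type. In bulk RNA, fewer cells with a transcript cannot be told apart from less transcript per cell.

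*AHNAK* had the largest response to TNF-α among the 7 members tested in granulocytes and overlapping groups in promyelocytes. Its protein is a very large scaffold under the plasma membrane, and the gene (chromosome 11, 62433542 to 62556235, minus strand, build hg38) had 19465 exonic bases. On a scale normalized within each cell type, vehicle-treated promyelocytes stood at 635, 659 and 669 CPM and TNF-α treated promyelocytes at 694, 507 and 602 CPM. The treated libraries lay on both sides of the untreated ones. In granulocytes the values were 36.0, 42.2 and 43.3 CPM with vehicle and 137, 128 and 122 CPM with TNF-α, so that each treated library was far above each untreated one. The log2 fold change was 1.67 ± 0.06 (SE, 3 libraries per group), a 3.18-fold increase, with an adjusted p of 1.59e-23 in edgeR's quasi-likelihood test.

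In promyelocytes the log2 fold change of *AHNAK* was -0.12 ± 0.08 (SE), with a 95% interval of -0.29 to 0.05 and an adjusted p of 0.364. This value moved with single libraries of the TNF-α group: without replicate 1 it was -0.24, with an adjusted p of 0.0209, and without replicate 2 it was -0.01, with an adjusted p of 0.956. The difference between the responses, granulocytes minus promyelocytes, was 1.83 on the log2 scale (SE 0.115, adjusted p = 3.27e-12). Of all 18124 genes tested for such a difference, 24.0% passed the threshold of 0.05, 14.1% with the higher value in granulocytes and 9.88% with the lower. Leaving out any of the 12 libraries kept the *AHNAK* difference between 1.72 and 1.94.

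The vehicle level of *AHNAK*, which chose it, is described on a scale common to all 12 libraries. It was 659 ± 8.52 CPM (SD, n = 3) in promyelocytes and 40.3 ± 3.82 CPM in granulocytes, 16.3-fold lower, and its place among 18124 genes moved from 154 to 5124. Of these genes, 0.839% had a granulocyte-to-promyelocyte difference this low or lower. With TNF-α the granulocyte level was 130 CPM, 19.7% of the vehicle promyelocyte level, against 6.12% with vehicle. The granulocytes with TNF-α therefore stayed well below every promyelocyte library. The vehicle libraries enter the level that chose the gene, the granulocyte response and the difference between the responses.

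**Figure D1:**
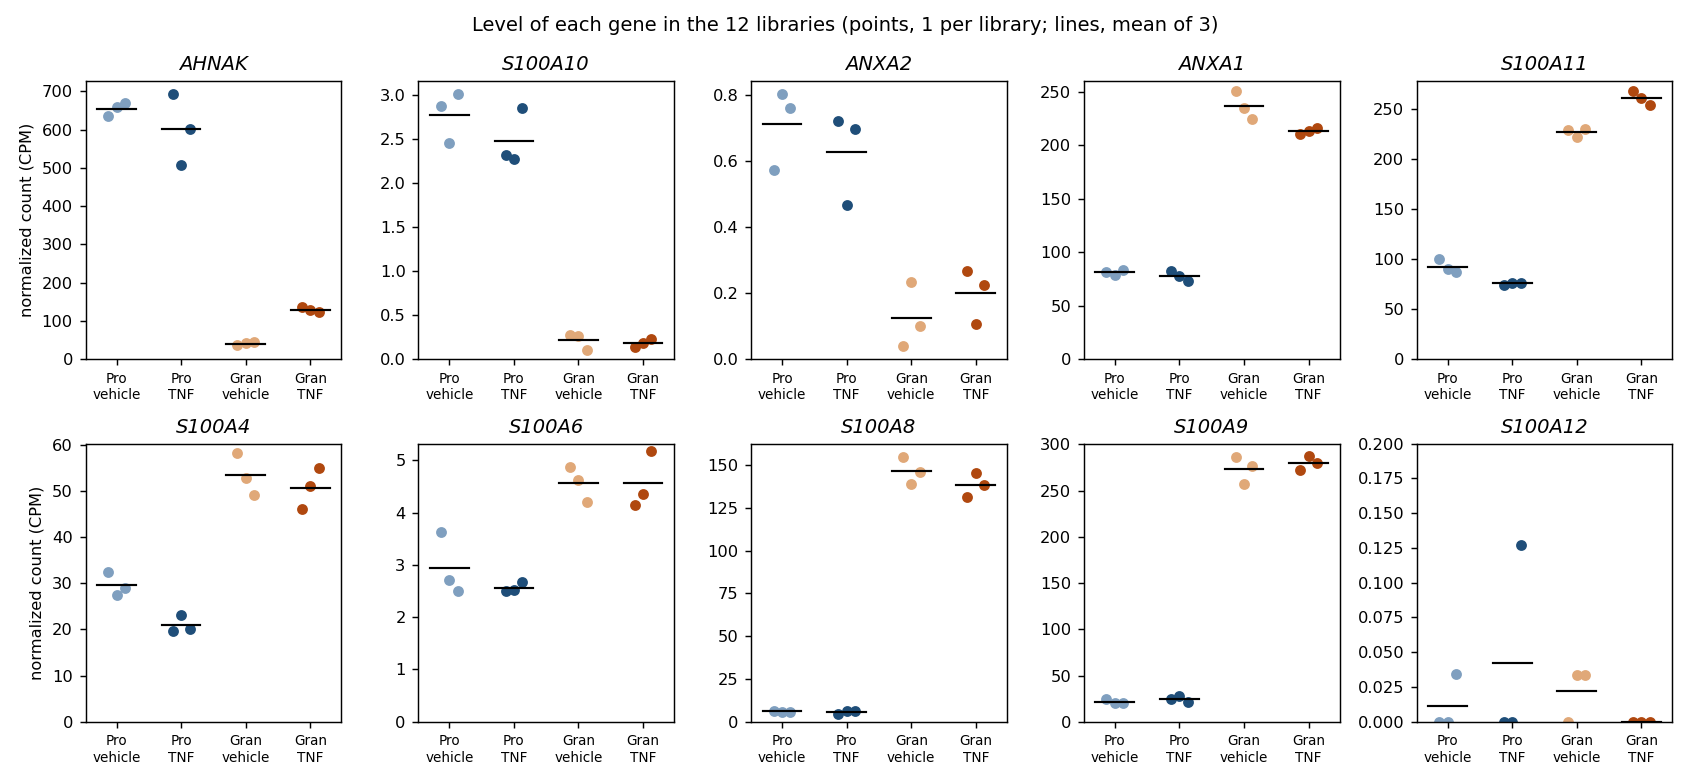
Normalized count (CPM, scaled within each cell type) of each of the 10 genes in the 12 libraries, with 1 point per library and a line at the mean of 3 libraries, for promyelocytes (Pro) and granulocytes (Gran) with vehicle or TNF-α. *AHNAK* stands at 36.0 to 43.3 CPM in vehicle-treated and 122 to 137 CPM in TNF-α treated granulocytes, while its 2 promyelocyte groups overlap.

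The partners that tether AHNAK to the membrane were low in granulocytes. *S100A10* (chromosome 1, 151982915 to 151994390, minus strand), whose protein recruits plasminogen and several ion channels to the cell surface, had 90, 67 and 87 counts in vehicle-treated and 61, 63 and 90 counts in TNF-α treated promyelocytes. The groups overlapped, and the log2 fold change was -0.16 (95% interval -0.56 to 0.24, adjusted p = 0.639). In granulocytes there were 7, 8 and 3 counts with vehicle and 3, 5 and 5 counts with TNF-α, too few to be tested.

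*ANXA2* (chromosome 15, 60347134 to 60402883, minus strand), which encodes the annexin of this complex, was lower still. Vehicle-treated promyelocytes had 18, 22 and 22 counts and TNF-α treated ones 19, 13 and 22, with a log2 fold change of -0.17 and a 95% interval of -0.91 to 0.56 (adjusted p = 0.793). That interval leaves room for a change of either sign, so no statement about *ANXA2* is possible at this depth. In granulocytes 1, 7 and 3 counts were found with vehicle and 6, 3 and 5 with TNF-α.

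The vehicle levels of both genes are given without a test. The summed *S100A10* counts were 244 in vehicle-treated promyelocytes and 18 in vehicle-treated granulocytes, and those of *ANXA2* were 62 and 11. Both genes passed the filter on low counts only through promyelocytes, where they are higher. On the common scale the log2 difference of *ANXA2* level was -2.54, and it moved to -3.37 without replicate 2 of the granulocyte vehicle group, which held 7 of the 11 counts. The tested difference of responses had wide intervals for both genes, from -1.03 to 0.98 on the log2 scale for *S100A10* and from -0.76 to 2.36 for *ANXA2*.

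*S100A11*, which encodes a partner of annexin A1, moved in opposite directions in the 2 cell types, although its increase in granulocytes depended on the normalization. The gene (chromosome 1, 152032506 to 152047907, minus strand) stood at 100, 89.6 and 86.5 CPM in vehicle-treated and at 74.3, 75.8 and 76.3 CPM in TNF-α treated promyelocytes. All treated libraries were below all untreated ones. The log2 fold change was -0.29 ± 0.06 (SE), with an adjusted p of 0.00341.

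In granulocytes *S100A11* stood at 228, 221 and 229 CPM with vehicle and at 268, 260 and 253 CPM with TNF-α. Here the treated libraries were above the untreated ones, with a log2 fold change of 0.20 ± 0.05 and an adjusted p of 0.000526. This call was lost when each library's trend with gene length was removed (log2 fold change 0.07, adjusted p = 0.177), when GC content was removed as well (0.04, adjusted p = 0.387) and when libraries were scaled by their totals alone (0.07, adjusted p = 0.194). The difference of the responses was 0.53 (SE 0.0814, adjusted p = 1.78e-05), and it passed the threshold under each of the 8 other settings, at 0.33 to 0.53.

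*ANXA1* (chromosome 9, 73151757 to 73170393, plus strand) encodes annexin A1, a protein that dampens neutrophil recruitment through formyl peptide receptors. In promyelocytes it stood at 81.2, 79.1 and 83.5 CPM with vehicle and at 82.7, 77.9 and 73.2 CPM with TNF-α. These groups overlapped, with a log2 fold change of -0.06 (95% interval -0.19 to 0.07, adjusted p = 0.578). In granulocytes the level was 251, 235 and 225 CPM with vehicle and 210, 213 and 216 CPM with TNF-α.

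Every treated granulocyte library was thus below every untreated one for *ANXA1*, by a log2 fold change of -0.15 ± 0.05 (SE, adjusted p = 0.00959). The call rested partly on replicate 1 of the vehicle group, without which the log2 fold change was -0.11 and the adjusted p 0.0691. With GC content and gene length trends removed it was -0.09, with an adjusted p of 0.05 after rounding. The difference between the cell types' responses was -0.05 (95% interval -0.22 to 0.11, adjusted p = 0.673), so the responses of *ANXA1* were not shown to differ.

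*S100A4* was the most strongly decreased of the 9 members tested in promyelocytes. Its protein binds non-muscle myosin and is known from cell motility and metastasis. The gene (chromosome 1, 153543613 to 153550136, minus strand) overlaps *S100A3* on the same strand, and read pairs in shared exons are left out of both by the counting program. Values were 32.5, 27.6 and 28.9 CPM with vehicle and 19.6, 23.1 and 20.2 CPM with TNF-α. With no overlap between the groups, the log2 fold change was -0.50 ± 0.09 (SE, adjusted p = 0.000286).

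In granulocytes *S100A4* stood at 58.3, 52.9 and 49.2 CPM with vehicle and at 46.1, 51.1 and 54.9 CPM with TNF-α. The groups overlapped, and the log2 fold change was -0.07 (95% interval -0.20 to 0.06, adjusted p = 0.352). *S100A4* was called decreased there with library totals alone (-0.20, edgeR adjusted p = 0.0132). It was also called with length trends removed (-0.17, adjusted p = 0.0262) and with GC content removed as well (-0.21, adjusted p = 0.00347). The difference of the responses was 0.46 (SE 0.116, adjusted p = 0.00404). It was smallest, at 0.28 with an adjusted p of 0.046, when GC content and gene length trends were removed, and its adjusted p was 0.0474 with library totals alone.

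*S100A6* (chromosome 1, 153534599 to 153536244, minus strand), which encodes calcyclin, lies close to *S100A4*, with *S100A5* between them, and was expressed at 3.06 against 29.1 CPM per kilobase of exons in vehicle-treated promyelocytes. It had 114, 74 and 72 counts in vehicle-treated and 66, 70 and 84 counts in TNF-α treated promyelocytes, and 127, 139 and 125 against 93, 122 and 115 counts in granulocytes. Neither comparison passed the test. The log2 fold changes were -0.20 (95% interval -0.61 to 0.20) in promyelocytes and -0.00 (95% interval -0.30 to 0.29) in granulocytes.

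The calgranulins held the widest upward differences of level in the set and gave no call with TNF-α in the main fits. *S100A8* (chromosome 1, 153390032 to 153391188, minus strand) stood at 6.51, 5.93 and 5.82 CPM in vehicle-treated and at 4.71, 6.20 and 6.50 CPM in TNF-α treated promyelocytes. In granulocytes it stood at 155, 139 and 146 CPM with vehicle and at 131, 146 and 139 CPM with TNF-α. The groups overlapped in both cell types. Log2 fold changes were -0.07 (95% interval -0.36 to 0.23) and -0.08 (95% interval -0.18 to 0.02), with adjusted p values of 0.808 and 0.203. In granulocytes *S100A8* was called decreased with library totals alone (-0.21, edgeR adjusted p = 0.0012). The same held with length trends removed (-0.17, adjusted p = 0.00299) and with GC content removed as well (-0.19, adjusted p = 0.000237).

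*S100A9* (chromosome 1, 153357854 to 153361027, plus strand) stood at 24.5, 20.1 and 20.3 CPM with vehicle and at 24.9, 28.0 and 21.2 CPM with TNF-α in promyelocytes. In granulocytes the values were 286, 258 and 277 CPM and 272, 287 and 280 CPM. Again the groups overlapped in both. The log2 fold change was 0.19 (95% interval -0.02 to 0.40, adjusted p = 0.253) in promyelocytes and 0.03 (95% interval -0.07 to 0.13, adjusted p = 0.604) in granulocytes. In granulocytes its sign changed with the length and GC corrections, under which it was called decreased at -0.11 and -0.17.

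*S100A12* (chromosome 1, 153373706 to 153375649, minus strand) had 0 counts in 8 libraries, 1 count in 3 and 4 counts in replicate 3 of the TNF-α treated promyelocytes. It was at or under the floor in all 3 TNF-α treated granulocyte libraries and was tested nowhere. In vehicle level, *S100A8* was 23.8-fold and *S100A9* 12.5-fold higher in granulocytes, at 146 against 6.14 CPM and 272 against 21.8 CPM on the common scale. *ANXA1* was 2.89-fold, *S100A11* 2.43-fold, *S100A4* 1.78-fold and *S100A6* 1.53-fold higher.

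In all, 9 of the 10 genes passed the filter on low counts over the 12 libraries, and none of these overlapped between the vehicle groups: 6 were higher and 3 lower in granulocytes. Of all genes on that scale, 74.4% did not overlap, 37.3% being higher and 37.1% lower in granulocytes. At least 2-fold differences were found for 4 genes upwards and 3 downwards, against 19.8% and 16.4% of all genes. Since vehicle levels were known when the set was made, these shares are printed for orientation and nothing is read from them.

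**Figure D2:**
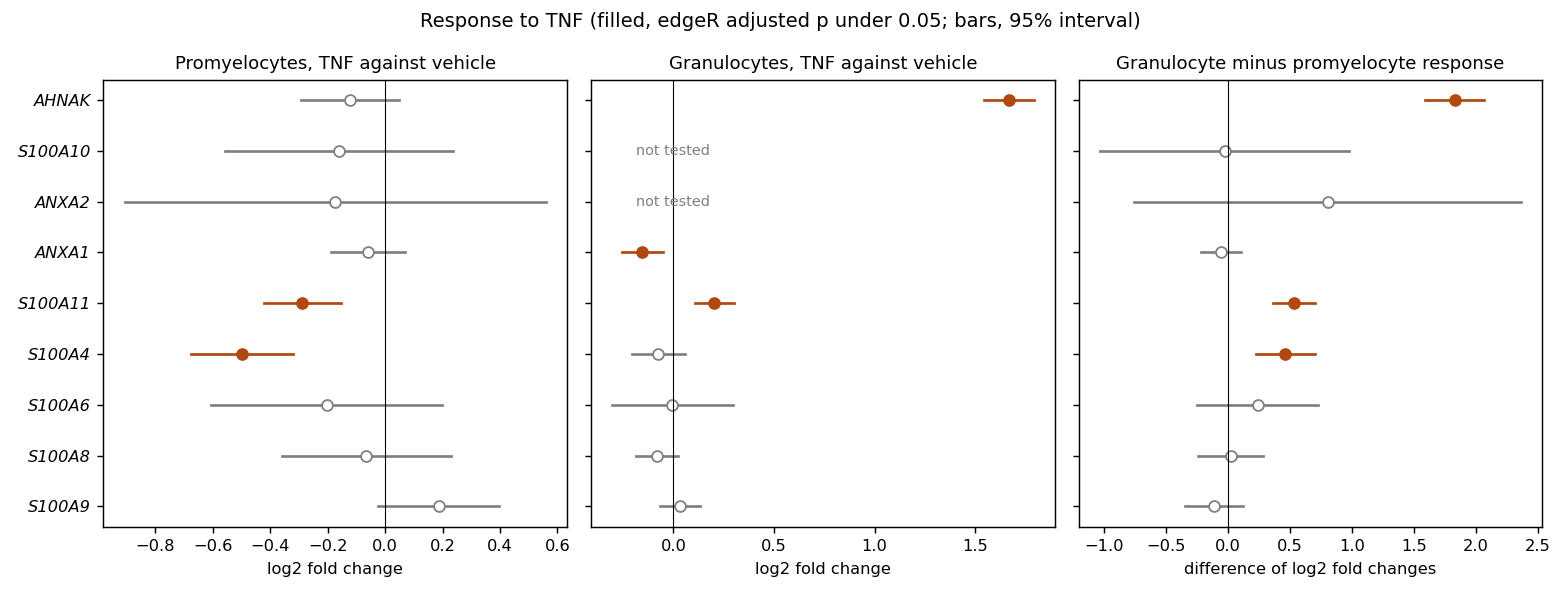
Log2 fold change with TNF-α in each cell type and the difference between the cell types (horizontal axes, each with its own range) for the 9 genes tested in any comparison; bars are 95% intervals and filled points passed an adjusted p of 0.05. The intervals of *AHNAK* in granulocytes (1.54 to 1.79) and of *S100A11* and *S100A4* in promyelocytes lie away from 0.

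With TNF-α, 2 of the 9 tested genes were called in promyelocytes, *S100A4* and *S100A11*, both decreased. In that comparison 14.8% of all 16250 genes tested were called, 8.15% as increased and 6.65% as decreased, so 2 of 9 is near the background. In granulocytes 3 of the 7 tested genes were called, *AHNAK* and *S100A11* as increased and *ANXA1* as decreased. Of all 16944 genes tested there, 49.3% were called, 24.4% as increased and 24.8% as decreased. A share of 3 in 7 is near that background. The median absolute log2 fold change of all genes in granulocytes was 0.28, against 1.67 for *AHNAK*. The difference of responses was called for 3 of 9 genes, all with the higher value in granulocytes, against 24.0% of all 18124 genes called and 14.1% in that direction. These 9 include *S100A10* and *ANXA2*, with 1 to 8 counts in each granulocyte library. The treated and untreated libraries did not overlap for 2 of 9 genes in promyelocytes, against 31.1% of all genes, and for 3 of 7 in granulocytes, against 55.2%.

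Compared per kilobase of exons, the order of levels changed with cell type. In vehicle-treated promyelocytes *S100A11* led with 137 CPM per kilobase, followed by *S100A9* at 37.8, *AHNAK* at 33.8, *S100A4* at 29.1, *ANXA1* at 17.9, *S100A8* at 6.10, *S100A6* at 3.06 and *S100A10* at 1.82. The ranges of neighbours in this order did not overlap, except those of *ANXA2*, at 0.0814, and *S100A12*. In vehicle-treated granulocytes the order was *S100A9* at 472, *S100A11* at 331, *S100A8* at 145, *S100A4* at 51.9, *ANXA1* at 51.8, *S100A6* at 4.69, *AHNAK* at 2.07 and *S100A10* at 0.137 CPM per kilobase. Here *S100A4* and *ANXA1* could not be separated. With TNF-α, *AHNAK* passed *S100A6* in granulocytes, at 6.66 against 4.73 CPM per kilobase, with ranges of 6.27 to 7.11 and 4.33 to 5.35. All exons of a gene were counted as its length, whichever transcript was in use.

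**Figure D3:**
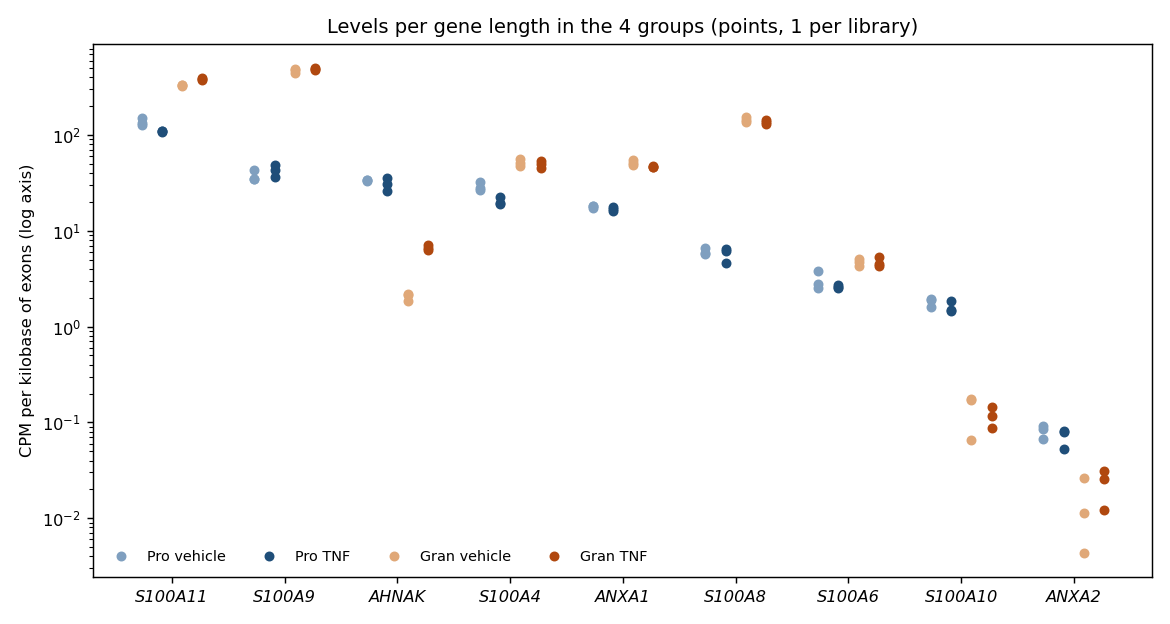
Level of 9 of the genes in CPM per kilobase of exons (log axis), normalized over all 12 libraries, with 1 point per library; the genes are ordered by their level in vehicle-treated promyelocytes. *S100A9* and *S100A11* lie highest in vehicle-treated granulocytes, at means of 472 and 331, with *S100A8* next at 145, while *AHNAK*, *S100A10* and *ANXA2* lie higher in promyelocytes.

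Ratios between partners within a library do not depend on the scaling between libraries. They keep each library's trends with gene length and GC content, and were not run with these trends removed. Exact two-sided permutation tests were used for 8 such comparisons, in which 3 libraries against 3 can reach no p below 0.1. In granulocytes the ratio of *S100A8* to *S100A9* per kilobase was 0.311, 0.310 and 0.302 with vehicle and 0.277, 0.291 and 0.284 with TNF-α. Per kilobase, *S100A9* thus exceeded its partner 3.25-fold and 3.52-fold on average. These folds rest on annotated exonic lengths of 577 and 1006 bases. Before that division the mean levels with vehicle were 273 and 147 CPM. All treated ratios were lower (exact p = 0.1, adjusted over the 8 comparisons 0.267). With both trends removed, the separate log2 fold changes in granulocytes were -0.19 for *S100A8* and -0.17 for *S100A9*. In promyelocytes the ratio was 0.162 with vehicle and 0.134 with TNF-α, with overlapping libraries (exact p = 0.4).

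The ratio of *S100A11* to *ANXA1* in granulocytes was 6.09, 6.30 and 6.83 with vehicle and 8.54, 8.18 and 7.86 with TNF-α. Every treated ratio was higher, with the exact p at its smallest value of 0.1. With GC content and gene length trends removed, the separate log2 fold changes in granulocytes were 0.04 for *S100A11* and -0.09 for *ANXA1*. In promyelocytes the mean ratio was 7.59 with vehicle and 6.50 with TNF-α (exact p = 0.2), the libraries overlapping. For *AHNAK* to *S100A10* the granulocyte values were 10.6, 12.6 and 34.0 with vehicle and 81.0, 56.8 and 42.8 with TNF-α, resting on 3 to 8 counts of *S100A10* per library (exact p = 0.1). In promyelocytes the same ratio was 18.7 and 19.1 (exact p = 0.8). Per kilobase, *S100A10* exceeded *ANXA2* 22.4-fold and 22.8-fold in promyelocytes (exact p = 0.8). These folds rest on 1543 and 8824 bases over all annotated exons, whichever transcript was in use. The summed counts in vehicle-treated promyelocytes were 244 and 62. In granulocytes the ratio could not be pinned down from 1 to 8 counts (exact p = 0.5).

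**Figure D4:**
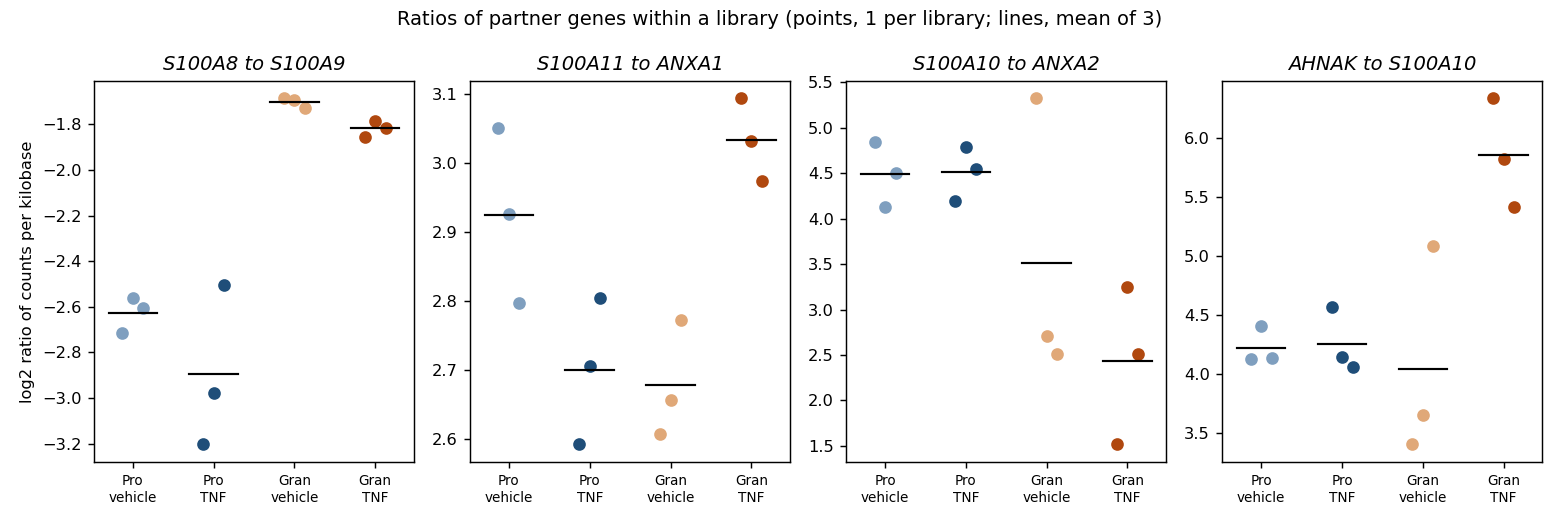
Log2 ratio of counts per kilobase between partner genes in each library (points, with a line at the mean of 3), for promyelocytes (Pro) and granulocytes (Gran). The TNF-α and vehicle libraries of the granulocytes do not overlap for *S100A8* to *S100A9*, *S100A11* to *ANXA1* and *AHNAK* to *S100A10*. Each of these had an exact permutation p of 0.1 (adjusted 0.267), and the last rests on 3 to 8 counts of *S100A10* per library.

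The S100 genes sit together on chromosome 1. Between *S100A10* and *S100A1*, positions 151982915 to 153632039, the table holds 87 genes over 1.65 Mb, of which 67 had no read in any library. Of the 9 genes tested in promyelocytes 8 were S100 genes, and *S100A11* and *S100A4* were the only ones called. The genes on either side of *S100A4* that were tested, *S100A6* and *S100A13*, had log2 fold changes of -0.20 and 0.11 (adjusted p = 0.548 and 0.812). Of the 7 tested in granulocytes, 6 S100 genes among them, *S100A11* alone was called. Over all genes tested, 14.8% were called in promyelocytes and 49.3% in granulocytes.

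Among 14 other S100 genes, 6 had no read, and of the 5 tested in promyelocytes none was called. In granulocytes 2 of 4 were called, both as decreased. The shares called over all genes were 14.8% in promyelocytes and 49.3% in granulocytes. *S100Z* stood at 10.9 ± 1.12 CPM with vehicle and 5.43 ± 0.68 CPM with TNF-α (SD, n = 3), a log2 fold change of -1.01 with an adjusted p of 4.01e-09. *S100B*, the S100 gene best known from glia, stood at 3.62 and 2.35 CPM (log2 fold change -0.61, adjusted p = 0.00537).

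Of the other annexins and *AHNAK2*, 7 were tested in promyelocytes, with 2 called increased and 1 decreased. In granulocytes 5 were tested, with 3 called increased and 1 decreased. Over all genes, 14.8% were called in promyelocytes and 49.3% in granulocytes. *ANXA8* had 7 to 13 counts in vehicle-treated and 91 to 117 counts in TNF-α treated promyelocytes, a log2 fold change of 3.53 (adjusted p = 8.25e-09). Near-identical copies of *ANXA8* exist, so its counts are uncertain, and in granulocytes it had at most 3 counts. *ANXA7* was increased in both cell types, by 0.27 and 0.65 on the log2 scale (adjusted p = 0.0046 and 1.17e-13), and *ANXA11* was decreased in both, by -0.29 and -0.21 (adjusted p = 0.00518 and 0.00067). In promyelocytes the *ANXA7* call was lost without replicate 2 of the vehicle group and the *ANXA11* call without replicate 2 of the TNF-α group.

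Of 10 genes listed as receptors of S100 proteins and annexin A1, 7 were tested in promyelocytes, with 3 called increased and none decreased. In granulocytes 8 were tested, with 4 increased and 2 decreased. The shares called over all genes were 14.8% in promyelocytes and 49.3% in granulocytes. *TLR4*, a receptor of calprotectin, fell in granulocytes from 94.9 ± 2.18 to 56.1 ± 0.643 CPM (log2 fold change -0.76, adjusted p = 3.55e-15) and stood at 40.5 and 42.1 CPM in promyelocytes (adjusted p = 0.655). Its co-receptor *LY96* had 17 to 30 counts with vehicle and 6 to 11 with TNF-α in granulocytes (log2 fold change -1.07, adjusted p = 0.0289). That call for *LY96* was lost under 6 of 15 other settings. *CD36*, a scavenger receptor, had no read in promyelocytes and rose in granulocytes from 1.01 to 6.12 CPM (log2 fold change 2.59, adjusted p = 7.69e-14).

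A further pair of receptors was picked after the values were seen. *FPR2*, which binds annexin A1, was called increased in both cell types, by 0.31 and 0.76 on the log2 scale (adjusted p = 0.0101 and 4.72e-16). *AGER*, the receptor RAGE for S100 proteins, was called increased as well, by 0.70 and 0.43 (adjusted p = 0.0482 and 0.00269). The promyelocyte call of *AGER* was lost under 7 of 15 other settings and that of *FPR2* under 1.

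A further 13 genes were listed around S100 proteins: intracellular partners, channels and genes of plasmin formation. Of these, 7 were tested in promyelocytes, with 1 increased, and 8 in granulocytes, with 3 increased and 3 decreased. Over all genes, 14.8% were called in promyelocytes and 49.3% in granulocytes. *PLAUR*, the urokinase receptor that works beside *S100A10* in plasmin formation, rose in granulocytes from 56.7 ± 2.58 to 163 ± 15.9 CPM (log2 fold change 1.52, adjusted p = 9.6e-23). In promyelocytes it stood at 9.93 and 9.16 CPM (adjusted p = 0.564). *PLGRKT*, a plasminogen receptor, rose in granulocytes by 0.46 on the log2 scale (adjusted p = 0.000396), and *TRPV6*, a calcium channel that *S100A10* carries to the membrane, had 29 to 57 counts with vehicle and 5 to 9 with TNF-α (log2 fold change -2.33, adjusted p = 5.3e-06).

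Of 16 genes of calcium-dependent membrane repair, 12 were tested in promyelocytes, with 1 called decreased. In granulocytes 11 were tested, with 4 increased and 1 decreased. The shares called over all genes were 14.8% in promyelocytes and 49.3% in granulocytes. *CAPN2*, a calpain subunit gene, stood, like *AHNAK*, lower in granulocytes and rose there. With vehicle it had 1870 to 2269 counts in promyelocytes and 77 to 119 counts in granulocytes. Normalized within each cell type, its level was 71.1 and 75.1 CPM in promyelocytes (adjusted p = 0.422). In granulocytes it went from 3.51 ± 0.526 to 10.9 ± 0.926 CPM (log2 fold change 1.63, adjusted p = 1.68e-13). *CHMP4B*, of the membrane-cutting ESCRT machinery, rose in granulocytes by 0.40 (adjusted p = 8.69e-08). *TRIM72* was called decreased in promyelocytes at -0.67 (adjusted p = 0.0296), a call lost under 6 of 15 other settings. Of 12 pseudogenes of the set, 7 were in the table, with at most 4 counts in any library.

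The genes most like 3 members over the 12 libraries were found by Pearson correlation of log2 CPM among 12454 genes whose mean log2 CPM was 1 or more, as a description. These points fall into 4 groups that share a cell type or a treatment. Closest to *AHNAK* were *PPRC1*, *LARP1* and *HNRNPU* (r = 0.996 each). *PPRC1* stood at 182, 167, 56.6 and 90.3 CPM in vehicle-treated and TNF-α treated promyelocytes and vehicle-treated and TNF-α treated granulocytes. Closest to *S100A9* were *CYRIB* and *MYL12A* (r = 0.999) and *ARPC5* (r = 0.998), and closest to *ANXA1* were *GLRX*, *PIK3CG* and *ITM2B* (r = 0.998 each). Within the set, r was 0.996 between *S100A8* and *S100A9*, 0.917 between *AHNAK* and *S100A10* and -0.949 between *AHNAK* and *ANXA1*.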

How the data were processed

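RNA-seq libraries of HL-60/S4 cells were analysed, 12 in all. The authors aligned reads with STAR 2.5.3a to hg38 and counted read pairs with featureCounts 1.5.2 on GENCODE 27, reverse strand, primary alignments, both ends mapped and not chimeric. They deposited raw counts, without normalization (22829189 to 31895061 per library). Symbols were matched for 57532 of 58288 identifiers. Groups came from the sample titles. Tests were run within a cell type in R 4.3.3 with edgeR 4.0.16, using TMM scaling, filterByExpr (minimum count 10, total 15), quasi-likelihood test and Benjamini-Hochberg adjustment over all genes tested, threshold 0.05. The difference of responses was the interaction in a fit of 12 libraries in 4 groups. Standard errors came from the log2 fold change and its F statistic. The scripts were tested on simulated data. CPM used TMM library sizes, within each cell type for TNF-α comparisons and over 12 libraries for levels and correlations (pseudocount 0.5 CPM). Alternatives were DESeq2 1.42.0, its size factors, no filter, thinning, length and GC trends, a replicate block, 1 joint fit and leaving out each library. Scaling by library totals alone was added after the data had been seen.

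Members and lists were chosen with earlier results of these data known. All 10 members were named, and from each list of further genes up to 3 with the largest absolute log2 fold change among those called in either cell type. For *AHNAK*, *S100A9* and *ANXA1* the 3 most correlated genes were named. Promoters are from RefSeq and all 10 members matched. Motifs were searched on both strands. Precision is set by 3 libraries per group, and floors cover counting error only. Values of 1 listed marker gene are not reported here.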

Additional observations from a re-analysis of the deposited data

Results flagged for a closer look

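For 3 genes the responses to TNF-α differed between the cell types by the test of the difference itself (granulocytes minus promyelocytes, log2 scale, edgeR). Cell type and experiment cannot be told apart in these differences, since the experiments were run separately. The difference was 1.83 for *AHNAK*, which rose in granulocytes in 3 of 3 treated libraries. The vehicle libraries in this difference also gave the level that chose *AHNAK*. For *S100A11* it was 0.53, with a decrease in promyelocytes and an increase in granulocytes. The call of that increase was lost with length trends removed, with GC content removed as well and with library totals alone. For *S100A4* it was 0.46, with a decrease in promyelocytes (-0.50) and a value of -0.07 in granulocytes that did not pass the test.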

How the results depend on the processing

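*AHNAK* in granulocytes passed the threshold under all 9 other settings (1.54 to 1.68) and in all 6 fits without a library (1.59 to 1.72), and so did *S100A4* and *S100A11* in promyelocytes. The number of genes of the set called was 2 to 3 in promyelocytes, 3 to 4 for the difference, and in granulocytes 3, becoming 4 with library totals alone, 5 with gene length trends removed and 5 with GC content and gene length trends removed. With the trends removed, the added calls were decreases of *S100A8* (-0.17 and -0.19), *S100A4* (-0.17 and -0.21) and *S100A9*, which reversed from 0.03 to -0.11 and -0.17, while *S100A11* was no longer called. The cause was not tested. Scaling by library totals alone moved the median log2 fold change of all granulocyte genes from -0.00 to -0.13, and *S100A8* and *S100A4* (-0.21 and -0.20) were then called decreased. Without 1 library each, 2 to 3 genes were called in promyelocytes, 2 to 3 in granulocytes and 3 for the difference, and 3 to 5 of the 8 partner ratios did not overlap (5 without replicate 3 of the TNF-α treated promyelocytes). Over all genes, the count in promyelocytes fell from 2405 to 1598 without replicate 2 of the vehicle group. Ratios without the length division were not run separately, since differences stay the same. *S100A10*, *ANXA2* and *S100A12* were limited by depth.

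For libraries of the same number, the correlation of deviations from group means was -0.37 to -0.221 in promyelocytes and -0.296 to -0.0362 in granulocytes. Deviations within a group of 3 are tied to each other. Whether libraries of the same number were handled together therefore cannot be decided from these values. With the replicate block, 2 genes of the set were called in promyelocytes, 3 in granulocytes and 3 for the difference, and over all genes 1833, 7722 and 3349, against 2405, 8345 and 4351 without it.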
